A study of Homo sapiens with 6 samples.

Results

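Genes of cell junctions and of the matrix to which cells attach were followed in C4-2 cells, an established prostate cancer line that descends from LNCaP cells, after the kinase DNA-PKcs was inhibited or its transcript was targeted. The genes were chosen by symbol: integrins, cadherins, laminins, collagens, desmosomal cadherins, claudins, catenins, plakophilins, plakoglobin, the zonula occludens proteins, occludin, fibronectin and vimentin. Of 14812 genes with 1 symbol on the arrays, 44 protein-coding genes matched. Another 4 matches were antisense or other noncoding entries and were left out. The name of the set promises more than was measured: 0 integrins, 0 laminins and 0 catenins had a named probeset, so these families are not analysed here, and 1 collagen, COL26A1, was. The 44 genes are 24 claudins, occludin with 2 zonula occludens genes, 7 desmosomal cadherins, plakoglobin with 4 plakophilins, 2 other cadherins, COL26A1, fibronectin and vimentin, so what follows is mainly an account of tight junctions and desmosomes.

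The 6 arrays (Affymetrix Human Gene 2.0 ST) form 3 groups of 2 biological replicates. The first group was given NU7441, a selective DNA-PKcs kinase inhibitor, at 1 µM for 24 h. The second was transfected, for 96 h, with pooled siRNAs to PRKDC, the gene that encodes DNA-PKcs, and the third, the control, was treated with the solvent DMSO. All were grown in medium with hormones, and all are 1 cell line. The labels do not say which arrays, if any, carried the control siRNA pool that the protocol names, so in the knockdown comparison an effect of transfection and one of depletion cannot be told apart. PRKDC itself had no named probeset, so the depletion could not be checked here.

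Tight junctions seal the space between epithelial cells: claudins and occludin span the membrane, and the zonula occludens proteins tie them to actin. Desmosomes join cells mechanically, with desmogleins and desmocollins reaching across the gap and plakoglobin, plakophilins and desmoplakin linking them to keratin filaments. In prostate epithelium both junctions join the luminal cells, and loss of junction proteins with a gain of vimentin and fibronectin is the textbook picture of epithelial to mesenchymal transition.

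The deposited values are linear intensities with no value below 16, and they do not compare between genes. The median over all probesets was 24.6 and 26.0 for NU7441, 28.4 and 27.6 for knockdown and 31.5 and 31.6 for control, and the 95th percentile was 289 to 299 throughout. Dim genes therefore lean low in both treatments. The median log2 fold change under NU7441 was -0.29 for genes with a mean log2 intensity of 4 to 5 and 0.21 for those above 8. Members brighter than the median tested gene (38.2, mean over all 6 arrays), 21 of the 44, are therefore described apart from the 23 dimmer ones. Replicate spread was widest under NU7441, with a median SD of log2 values over the members of 0.25, against 0.142 for knockdown and 0.106 for control. Of the 6 arrays NU7441 replicate 1 had the most values near 16, and the control arrays had the fewest. Of 11 luminal prostate markers 6 were measured, among them KLK3, which encodes prostate-specific antigen, at 1213 and 969 under NU7441, 709.5 and 711 after knockdown and 793 and 726 in control cells, above the 95th percentile of its array in all 6. FOLH1 and KRT18 also lay above it throughout, KLK2 on all arrays but NU7441 replicate 1, and HOXB13 and KRT8 on none. KLK3 was itself higher under NU7441 than in control cells (log2 fold change 0.51 ± 0.12, limma adjusted p = 0.0110). The other measured luminal markers did not pass and had no common sign. HOXB13 was at 0.40, FOLH1 at 0.29, KRT8 at 0.20, KRT18 at -0.13 and KLK2 at -0.44. After knockdown KLK3 (-0.61 ± 0.12) and HOXB13 (-0.94 ± 0.17) were lower than under NU7441. FOLH1 (-0.45) did not pass there, nor did KRT8 (0.43), KLK2 (0.36) and KRT18 (0.33), which had the opposite sign.

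Under NU7441 the junction genes moved both ways, also within families. Of the 24 claudins 4 rose and 6 fell, the 4 all among the brighter ones and the 6 all among the dimmer ones, or 5 and 3 after quantile normalization. Among all genes dimmer than the median 0.972% rose and 20.7% fell, so few dim genes of any kind rose. Of the 5 plaque genes JUP and PKP2 rose and PKP4 fell. Of the 7 desmosomal cadherins 5 fell and 0 rose, and occludin and both zonula occludens genes fell. Of the 44 members, 8 rose and 17 fell (limma, Benjamini-Hochberg adjusted p under 0.05 over all genes), 25 in all, where 33.2% of all tested genes passed, 10.8% higher and 22.4% lower. The split depended on the scaling: 9 rose and 10 fell after quantile normalization, where 14.3% of all genes rose and 13.8% fell. With each array centred on its median 9 rose and 8 fell, where 20.1% of all genes rose and 9.54% fell. Among the 21 bright members 8 rose and 7 fell, where 20.7% of equally bright genes rose and 24.0% fell. The median log2 fold change of the 44 members was -0.41, beside -0.23 for all tested genes, and that of the 21 bright members was -0.05, as it was for all bright genes, while after quantile normalization these became 0.26 and 0.09. Over all tested genes quantile normalization brought the median to 0.01. In bulk RNA a lower level per cell and fewer cells with the transcript cannot be told apart.

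**Figure D1:**
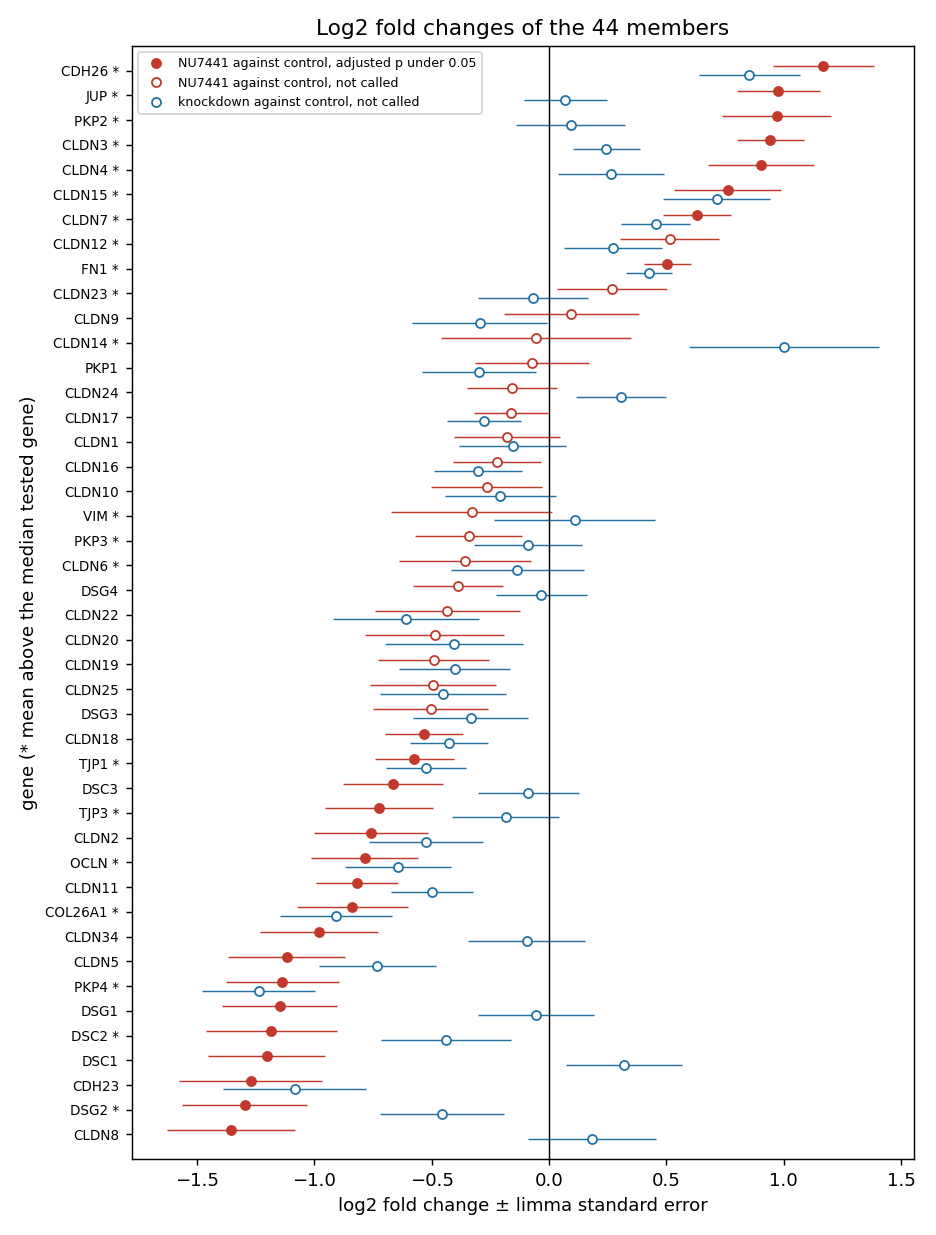
Log2 fold changes of all 44 members against control (x axis, points with limma's standard error), under NU7441 in red and after knockdown in blue, ordered by the NU7441 value. Filled points passed an adjusted p of 0.05: 25 members did under NU7441 and 0 after knockdown.

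CLDN3 and CLDN4 are claudins typical of simple and glandular epithelium, and their genes are direct neighbours on chromosome 7, with 0 other coding genes between them. CLDN3 intensity was 403 and 379.7 under NU7441, 241 and 241 after knockdown and 191 and 217 in control cells. Both NU7441 arrays lay well above the other 4, and CLDN3 rose 1.92-fold (0.94 ± 0.14 as log2 fold change ± SE, with 2 arrays in each group, limma adjusted p = 0.00225). CLDN4 was at 101 and 84.2 under NU7441, 58.7 and 59.8 after knockdown and 51.6 and 47.2 in control cells. It rose 1.87-fold (0.90 ± 0.22, adjusted p = 0.0156), again with no overlap between the NU7441 arrays and the others. After knockdown CLDN3 was 0.24 ± 0.14 and CLDN4 0.26 ± 0.22 from control, neither past the threshold.

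CLDN7, another claudin of glandular epithelium, was at 467 and 388 under NU7441, 351 and 404 after knockdown and 282 and 268 in control cells. It rose 1.55-fold under NU7441 (0.63 ± 0.15, adjusted p = 0.0118). CLDN15, best known as a pore-forming claudin of the intestine, was at 93.5 and 87.4 under NU7441, 95.8 and 80.1 after knockdown and 47.9 and 59.5 in control cells, and rose 1.69-fold (0.76 ± 0.23, adjusted p = 0.0307). For both genes the knockdown arrays lay above the control arrays as well. CLDN15 lost its call when either knockdown array was left out of the shared fit. The remaining bright claudins were CLDN12 (0.51 ± 0.21), CLDN23 (0.27 ± 0.23), CLDN14 (-0.05 ± 0.40) and CLDN6 (-0.36 ± 0.28), none past the threshold. CLDN12 passed after quantile normalization (0.60, adjusted p = 0.0415). Of the 8 bright claudins, then, 4 rose and 0 fell, where 20.7% of equally bright genes rose and 24.0% fell. After quantile normalization 5 rose and 0 fell, where 24.3% of bright genes rose and 21.5% fell.

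The transmembrane partner and the scaffolds of the same junction went the other way. OCLN, which encodes occludin, was at 38.7 and 40.6 under NU7441, 44.4 and 43.0 after knockdown and 70.2 and 66.4 in control cells. It fell 1.72-fold under NU7441 (-0.78 ± 0.23, adjusted p = 0.0271), and the knockdown arrays lay just above those of NU7441 and well below the controls. TJP1, which encodes ZO-1, was at 345 and 495 under NU7441, 439.8 and 416 after knockdown and 657 and 575 in control cells, with both treatments below both controls, and fell 1.49-fold under NU7441 (-0.57 ± 0.17, adjusted p = 0.0288). TJP3, which encodes ZO-3, was at 45.7 and 41.1 under NU7441, 58.2 and 68.1 after knockdown and 70.9 and 72.3 in control cells and fell 1.65-fold (-0.72 ± 0.23, adjusted p = 0.0370). These 3 calls were among the less secure ones: OCLN and TJP3 were lost after quantile normalization (-0.56 and -0.51), and TJP1 with median centring (-0.26). TJP1 also rested on NU7441 replicate 1, without which it was at -0.31 (adjusted p = 0.0542), and it lost its call in 8 of 14 alternatives.

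**Figure D2:**
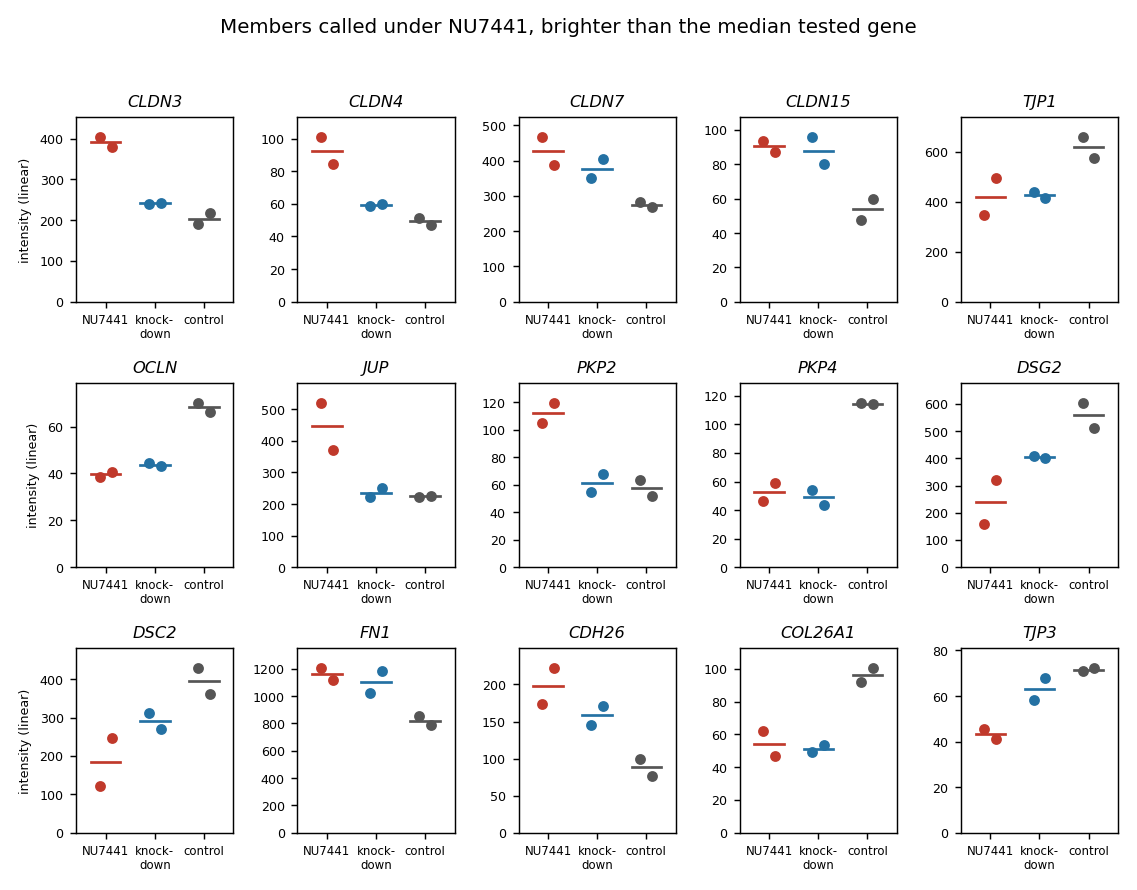
Linear intensity (y axis, from 0) of the 15 bright members that passed the test under NU7441, with 1 point per array, a line at each group's mean and the groups NU7441, knockdown and control from left to right. CLDN3, CLDN4, JUP and PKP2 are highest on the NU7441 arrays, whereas OCLN, PKP4 and COL26A1 are low on the NU7441 and knockdown arrays alike.

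The 7 desmosomal cadherin genes lie side by side on chromosome 18, in the order DSC3, DSC2, DSC1, DSG1, DSG4, DSG3, DSG2, and all 7 had negative log2 fold changes under NU7441, 5 of them past the threshold. Of all tested genes 65% were negative and 22.4% fell. Among genes dimmer than the median, as 5 of the 7 are, 77.8% were negative and 20.7% fell. The median of the 7 was -1.15, and after quantile normalization -0.88, with 4 past the threshold, where 13.8% of all genes fell. DSG2, the desmoglein of simple epithelium, was at 160.1 and 319.7 under NU7441, 408 and 402 after knockdown and 605 and 511 in control cells. It fell 2.46-fold (-1.30 ± 0.27, adjusted p = 0.00740), although on the log2 scale the NU7441 replicates differed from each other by more than the second of them differed from the control mean. DSC2, the matching desmocollin, was at 122 and 246 under NU7441, 311 and 271 after knockdown and 429 and 362 in control cells and fell 2.27-fold (-1.18 ± 0.28, adjusted p = 0.0128). In both genes NU7441 replicate 1 was the lowest array, and without it the log2 fold changes were -0.80 for DSG2 and -0.68 for DSC2, still past the threshold.

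The other 5 are desmosomal cadherins of stratified epithelium and were dim. DSC1 was at 18.4 and 22.5 under NU7441, 65.7 and 51.9 after knockdown and 49.0 and 44.8 in control cells, and DSG1 at 22.4 and 17.5 under NU7441, 47.0 and 37.9 after knockdown and 40.6 and 47.4 in control cells. Both were near the lowest deposited value of 16 under NU7441 and fell there (-1.20 ± 0.25 and -1.15 ± 0.25). DSC3 fell too (-0.66 ± 0.21, adjusted p = 0.0396) but lost the call after quantile normalization (-0.37), and DSG3 (-0.50 ± 0.25) and DSG4 (-0.39 ± 0.19) did not pass. No array can read below that value, which limits the fold that a dim gene can show.

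**Figure D3:**
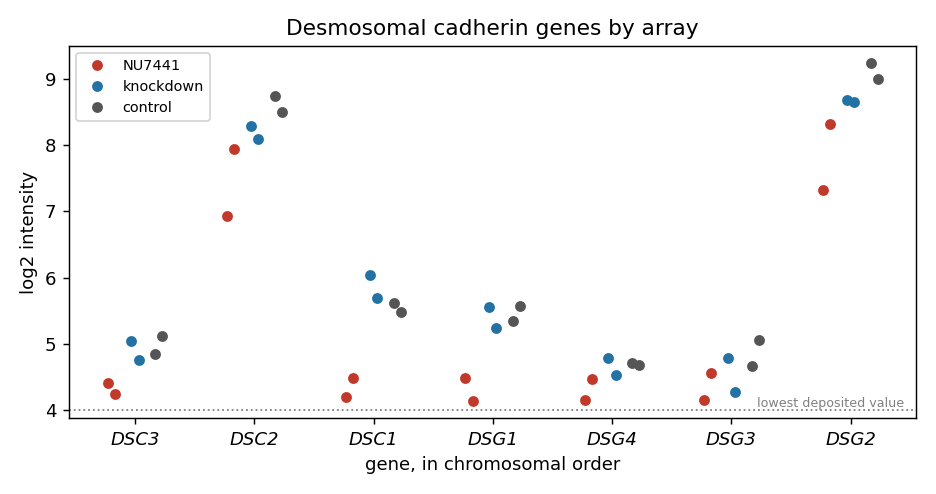
Log2 intensity (y axis) of the 7 desmosomal cadherin genes in chromosomal order (x axis), with 1 point per array in red for NU7441, blue for knockdown and grey for control. The NU7441 arrays are the lowest group for every gene but DSG3, whose NU7441 and knockdown arrays overlap. For every gene but DSG3 the knockdown mean is closer to the control mean than to the NU7441 mean. Heights of different genes are not comparable.

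Promoter sequences are shown for the 2 claudins that rose together and for the 2 bright desmosomal cadherins that fell together. Each is the 250 bases before the gene's start from RefSeq (GRCh38.p14), 5′ to 3′ on the gene's strand. Capitals mark 2 motifs: CAGGTG or CACCTG, the E-box form bound by Snail and ZEB repressors, and GGGCGG or CCGCCC, the GC box bound by SP1.
CLDN3 (chr7:73770271-73770520, minus strand): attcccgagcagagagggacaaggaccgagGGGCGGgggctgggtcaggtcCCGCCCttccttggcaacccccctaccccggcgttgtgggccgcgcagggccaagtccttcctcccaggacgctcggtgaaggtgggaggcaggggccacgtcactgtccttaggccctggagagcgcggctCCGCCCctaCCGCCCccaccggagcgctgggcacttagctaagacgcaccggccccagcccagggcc
CLDN4 (chr7:73830746-73830995, plus strand): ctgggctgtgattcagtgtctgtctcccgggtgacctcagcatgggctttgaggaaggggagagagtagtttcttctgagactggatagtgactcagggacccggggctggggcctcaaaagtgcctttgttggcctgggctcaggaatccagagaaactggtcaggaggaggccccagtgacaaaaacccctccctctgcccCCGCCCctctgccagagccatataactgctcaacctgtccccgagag
DSG2 (chr18:31497927-31498176, plus strand): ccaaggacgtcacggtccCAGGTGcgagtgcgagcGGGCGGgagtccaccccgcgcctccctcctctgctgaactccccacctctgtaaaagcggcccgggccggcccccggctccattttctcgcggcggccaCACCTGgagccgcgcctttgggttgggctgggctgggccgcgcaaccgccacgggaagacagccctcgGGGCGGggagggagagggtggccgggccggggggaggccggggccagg
DSC2 (chr18:31102422-31102671, minus strand): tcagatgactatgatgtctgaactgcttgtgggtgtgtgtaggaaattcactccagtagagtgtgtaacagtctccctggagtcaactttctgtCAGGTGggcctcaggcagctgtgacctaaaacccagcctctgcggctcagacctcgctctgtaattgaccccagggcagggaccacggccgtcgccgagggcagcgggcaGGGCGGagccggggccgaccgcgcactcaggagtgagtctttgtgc
CLDN3 has 4 GC boxes and 0 E-boxes in this window, CLDN4 1 and 0, DSG2 2 of each, and DSC2 1 of each, with no overlap between motifs. Of the 44 members 36 had such a window in the table, of which 7 held the E-box on either strand and 18 the GC box. Over 15843 coding-gene windows of the same length the shares were 17.1% and 56.0%. These matches describe letters in a window and not binding.

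The plaque proteins sit on the inside of the desmosome, and of their 5 genes 2 rose and 1 fell. Of all tested genes 10.8% rose and 22.4% fell, and of those brighter than the median 20.7% rose and 24.0% fell. JUP encodes plakoglobin, which also serves adherens junctions, and was at 521 and 373 under NU7441, 222 and 249 after knockdown and 224 and 224 in control cells. It rose 1.97-fold under NU7441 (0.98 ± 0.18, adjusted p = 0.00467), while the knockdown and control arrays lay close together. PKP2, a plakophilin of simple epithelium and heart, was at 105 and 119.8 under NU7441, 54.9 and 68.0 after knockdown and 63.5 and 51.8 in control cells, and rose 1.96-fold (0.97 ± 0.23, adjusted p = 0.0138). PKP4, an armadillo protein of adherens junctions, was at 46.1 and 59.0 under NU7441, 54.2 and 43.6 after knockdown and 115 and 114 in control cells. It fell 2.20-fold (-1.14 ± 0.24, adjusted p = 0.00830), with all 4 treated arrays far below both controls. PKP3 (-0.34 ± 0.23) and PKP1 (-0.07 ± 0.24, dim) did not pass.

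Matrix and mesenchymal genes gave no common direction. FN1, which encodes fibronectin, was at 1206 and 1119 under NU7441, 1021 and 1186 after knockdown and 854 and 785 in control cells. It rose 1.42-fold under NU7441 (0.50 ± 0.10, adjusted p = 0.00637), and both knockdown arrays lay above the controls too. VIM, the intermediate filament of mesenchymal cells, was at 45.4 and 50.3 under NU7441, 94.3 and 44.5 after knockdown and 54.2 and 66.5 in control cells and did not pass (-0.33 ± 0.34, adjusted p = 0.478). Its 3 probesets gave log2 fold changes of -0.33, -0.10 and 0.08, with no common sign. COL26A1, a collagen first described in testis and ovary of mice, was at 62.1 and 46.7 under NU7441, 49.2 and 53.5 after knockdown and 92.2 and 100.5 in control cells, and fell 1.79-fold (-0.84 ± 0.24, adjusted p = 0.0253), a call lost after quantile normalization (-0.67). CDH26, a cadherin of gastrointestinal and airway epithelium, was at 173 and 222 under NU7441, 145 and 171 after knockdown and 99.1 and 76.8 in control cells. It rose 2.25-fold (1.17 ± 0.22, adjusted p = 0.00494), which was the highest log2 fold change among the 44 members. Measured markers of fibroblasts and stroma, 3 of 8 listed, summed to 54.5 to 69.7 under NU7441, 124 to 136 after knockdown and 134 to 149 in controls, and LUM (-0.98) and THY1 (-1.88) fell under NU7441 while DCN did not pass (0.12). Their part in these results was not tested.

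The 23 dim members were on one side: 10 fell and 0 rose, where 20.7% of equally dim genes fell and 0.972% rose. Besides DSC1, DSG1 and DSC3 they were CLDN8 (-1.35 ± 0.27), CDH23, the tip-link cadherin of hair cells (-1.27 ± 0.30), CLDN5, the claudin of endothelium (-1.12 ± 0.25), CLDN34 (-0.98 ± 0.25), CLDN11, the claudin of myelin and Sertoli cells (-0.82 ± 0.17), CLDN2, a cation pore (-0.76 ± 0.24), and CLDN18, known from stomach and lung (-0.53 ± 0.17). Over these 10 genes intensities spanned 16 to 28.2 under NU7441, 16.9 to 65.7 after knockdown and 27.0 to 59.5 in controls. Summed intensities of 5 measured endothelial markers (of 8 listed, CLDN5 itself among them) were 106 to 127 under NU7441, 150 to 167 after knockdown and 239 to 253 in controls. Most of that drop was ENG, at 30.1 and 33.1 under NU7441 and 109 and 114 in controls. KDR fell too (-0.77 ± 0.20), whereas TIE1 (-0.53 ± 0.24) and VWF (-0.30 ± 0.23) did not pass. The part of these markers in the CLDN5 value was not tested. CLDN8, a barrier-forming claudin, was at 19.4 and 19.4 under NU7441, 48.7 and 65.1 after knockdown and 41.3 and 59.5 in control cells. CLDN8, CDH23, CLDN5, CLDN11, DSC1 and DSG1 kept the call after quantile normalization, and DSC3, CLDN34, CLDN2 and CLDN18 lost it. Sizes near the lowest value depended on that offset: with the 16 taken off, the log2 fold changes of the 10 ran from -3.25 (CLDN5) to -1.69 (CLDN18), with DSC1 at -2.66 and CLDN8 at -2.96, and CDH23 (-2.83, adjusted p = 0.0731), CLDN2 and CLDN18 lost their calls. The other 13 dim members, 10 of them claudins, spanned 16 to 49.0 under NU7441, 17.0 to 33.8 after knockdown and 21.1 to 55.1 in controls, with log2 fold changes from -0.50 to 0.10. CLDN22 with CLDN24 and CLDN6 with CLDN9 are neighbouring genes that resemble each other, and probes for one could also pick up the other.

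**Figure D4:**
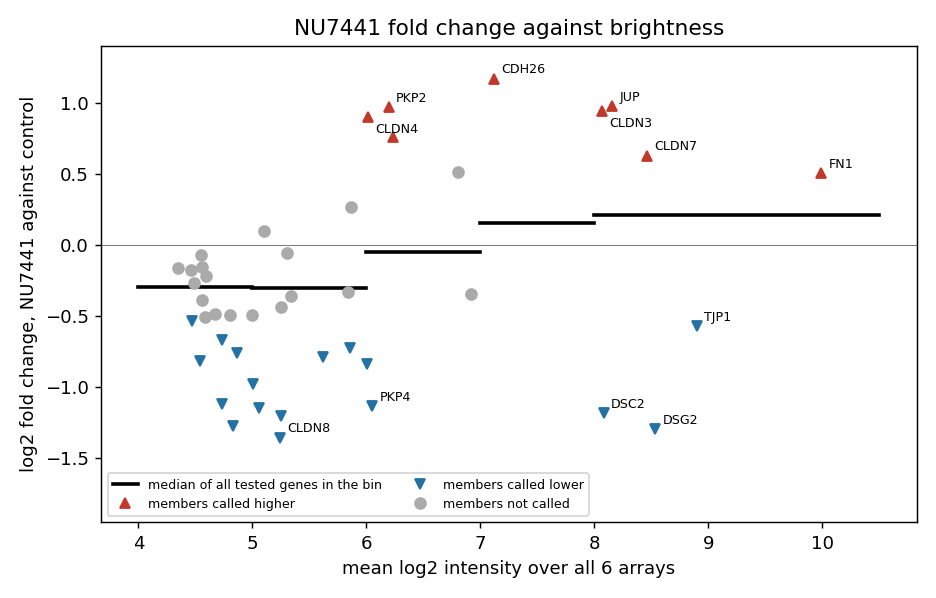
Log2 fold change under NU7441 (y axis) of the 44 members against mean log2 intensity over all 6 arrays (x axis), with bars at the median of all tested genes in each brightness bin. DSG2 and DSC2 lie below -1 at a brightness where the median gene is at 0.21, whereas many dim members lie near the bin medians of -0.29 and -0.30.

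The NU7441 calls rested on both controls. Without control replicate 1, 5 of the 44 members passed, as did 1051 of all 14812 genes, and without control replicate 2, 2 members and 868 genes did. CLDN3 was the one gene that kept its call in all 14 alternatives tried. CDH26, CLDN8, FN1 and JUP kept theirs without control replicate 1, and DSG2 without control replicate 2. None of the 25 called members turned sign in any of the alternatives that tested it.

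Knockdown of DNA-PKcs left no member past the threshold in the same fit. Of the 44 members 0 passed limma's test over all genes, where 0.770% of all tested genes did, 0.284% higher and 0.486% lower, and 5 were higher and 8 lower at an unadjusted p under 0.05, as were 989 and 1916 of the 14812 genes. PKP4 came closest (-1.24 ± 0.24, adjusted p = 0.0537) and passed after quantile normalization (-1.23, adjusted p = 0.0344). FN1 (0.43 ± 0.10, adjusted p = 0.0757), CDH26 (0.85 ± 0.22, adjusted p = 0.0868), COL26A1 (-0.91 ± 0.24, adjusted p = 0.0924) and CDH23 (-1.08 ± 0.30, adjusted p = 0.104) followed. JUP and PKP2, raised by NU7441, were at 0.07 ± 0.18 and 0.09 ± 0.23 after knockdown, with 95% intervals of -0.33 to 0.47 and -0.43 to 0.62.

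That count depended on which arrays entered the fit: without either one of the NU7441 arrays, 14 members passed. With only knockdown and control arrays in the fit, 14 of the 44 members passed, 5 higher and 9 lower, where 19.2% of all tested genes passed, 6.89% higher and 12.3% lower. Lower in that fit were PKP4 (-1.24 ± 0.17), CDH23 (-1.08 ± 0.25), COL26A1 (-0.91 ± 0.17), CLDN5 (-0.73 ± 0.21), OCLN (-0.64 ± 0.18), CLDN22 (-0.61 ± 0.20), TJP1 (-0.52 ± 0.10), DSG2 (-0.46 ± 0.10) and DSC2 (-0.44 ± 0.12). Higher were CLDN14 (1.00 ± 0.19), CDH26 (0.85 ± 0.16), CLDN15 (0.71 ± 0.18), CLDN7 (0.45 ± 0.11) and FN1 (0.43 ± 0.09). CLDN14, a claudin of inner ear and kidney, was at 50.5 and 18.6 under NU7441, 64.2 and 63.1 after knockdown and 29.6 and 34.2 in control cells, so its NU7441 replicates stood on either side of the controls. Both treatments were set against the same 2 control arrays, so these values and those under NU7441 are not independent of each other.

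Set directly against NU7441, knockdown left 6 members different, 3 higher and 3 lower, where 8.67% of all tested genes differed, 5.83% higher and 2.84% lower. JUP was lower in knockdown than in NU7441-treated cells (-0.91 ± 0.18, adjusted p = 0.0177), as were PKP2 (-0.88 ± 0.23, adjusted p = 0.0487) and CLDN3 (-0.70 ± 0.14, adjusted p = 0.0215). DSC1 (1.52 ± 0.25, adjusted p = 0.00962), CLDN8 (1.54 ± 0.27, adjusted p = 0.0120) and DSG1 (1.09 ± 0.25, adjusted p = 0.0298) were higher in knockdown cells, all 3 of them dim. Their NU7441 values lay near 16, and with that offset taken off the differences were 3.10 for DSC1, 3.22 for CLDN8 and 2.64 for DSG1, so their sizes are not firm; PKP2 lost its call there (-1.08, adjusted p = 0.0667). For each of the 6 the knockdown and NU7441 arrays did not overlap. Of all 14812 genes 4866 had both knockdown arrays above both NU7441 arrays and 2898 had them below. The 6 were picked by the test on the same arrays, so the lack of overlap adds no further evidence. After quantile normalization the same 6 passed. Leaving out either knockdown array left 0, either control array left 3, and without NU7441 replicate 2 there were 13. CLDN4 (-0.64 ± 0.22, adjusted p = 0.104), DSG2 (0.84 ± 0.27, adjusted p = 0.0784) and DSC2 (0.74 ± 0.28, adjusted p = 0.121) did not pass.

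Members with like values in both treatments had small differences and mostly wide intervals, which do not show that the treatments act alike on them. PKP4 differed between knockdown and NU7441 by -0.10 (95% interval -0.64 to 0.44), COL26A1 by -0.07 (-0.60 to 0.46), TJP1 by 0.05 (-0.33 to 0.43), CLDN15 by -0.05 (-0.56 to 0.47) and FN1 by -0.08 (-0.30 to 0.15).

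Partners of the members were counted from fixed lists. Of 18 measured junction partners (of 23 listed) 5 rose and 4 fell under NU7441. DSP, the desmoplakin that anchors plakoglobin to keratin, rose (0.93 ± 0.16), with 435 and 356 under NU7441, 239 and 223 after knockdown and 197 and 216 in control cells. PATJ, a polarity scaffold of tight junctions, rose as well (0.91 ± 0.17), and the nectins NECTIN1 (-1.05 ± 0.23) and NECTIN2 (-0.99 ± 0.24) fell. Of 16 integrin adhesion genes (of 24 listed) 3 rose and 3 fell, with PTK2, the focal adhesion kinase (1.15 ± 0.16), and TLN1, which encodes talin 1 (0.96 ± 0.22), highest and the kinase SRC (-1.37 ± 0.34) and TLN2 (-0.92 ± 0.29) lowest. These counts stand beside 10.8% higher and 22.4% lower among all genes, which the lower counts are near. After quantile normalization 6 junction partners rose and 4 fell, and 3 integrin adhesion genes rose and 1 fell, where 14.3% of all genes rose and 13.8% fell. In knockdown against control 0 genes of either list passed limma's test, where 0.77% of all genes did. CRB3 (0.66 ± 0.17) and KRT8 (0.63 ± 0.19) were highest of the junction list and MARVELD2, which encodes tricellulin (-0.61 ± 0.19), and ARVCF (-0.59 ± 0.24) lowest. Of the integrin adhesion list PTK2 (0.36 ± 0.16) and TGFB1I1 (0.11 ± 0.33) were highest and TNS3 (-0.69 ± 0.19) and LIMS1 (-0.67 ± 0.35) lowest.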

How the data were processed

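Trizol-extracted RNA was hybridised as amplified cDNA, per the labels' protocols. The deposited values are linear intensities, 1 per probeset and array; how the authors summarised and normalized them is not given in the sources used here. Each column was tied to its sample by identifier, and 0 columns belonged to no sample.

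Intensities were converted to log2 with no further scaling. Of 44629 probesets 15835 had 1 symbol in the platform table, 0 had several and 28794 were unnamed here. The brightest probeset stood for each of 651 genes with more than 1 (1 member, VIM), giving 14812 genes. All were fitted with limma 3.58.1 (R 4.3.3), 3 residual degrees of freedom and a trend of variance on mean. P-values were two-sided, adjusted by Benjamini-Hochberg across the 14812 genes, at 0.05. Values after ± are moderated standard errors, n = 2 per group; the number of arrays limits precision. The fit was tested on simulated data.

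Members and lists were chosen with earlier results of these data known. Genes named are members past the threshold in any comparison, the 3 brightest of each family, and the 2 highest and 2 lowest of each partner list against control; others were chosen after their values were seen. Alternatives were quantile normalization, median centring, the offset of 16 taken off with 1 added back, dim genes left out, no trend, only the compared groups, the mean of probesets, a replicate block and leaving out each array.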

Additional observations from a re-analysis of the deposited data

Results flagged for a closer look

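For 6 members the effect of knockdown differed from that of NU7441 against the same controls, by limma's test of the difference over all genes. It is the direct comparison of knockdown with NU7441 given above, not a further result. Among all genes 8.67% differed there, 5.83% higher and 2.84% lower. The log2 difference, knockdown minus NU7441, was -0.91 for JUP, -0.88 for PKP2 and -0.70 for CLDN3, and 1.52 for DSC1, 1.54 for CLDN8 and 1.09 for DSG1. Knockdown and NU7441 arrays did not overlap for any of the 6, as was so for 4866 genes upward and 2898 downward among all 14812. The sizes for DSC1, CLDN8 and DSG1 are not firm, since their NU7441 values lay near 16, and with that offset taken off they were 3.10, 3.22 and 2.64. Time under treatment also differed, at 96 h for knockdown and 24 h for NU7441, so its part cannot be told apart from that of the treatment. No time is listed for the control arrays. Groups of 2 arrays were too small to test single arrays as outliers.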

How the results depend on the processing

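In knockdown against control, the count of all genes called was 114, and 199 after quantile normalization, 423 with median centring, 7 with the offset of 16 taken off, 4 without the mean-variance trend, 2843 with only the 2 compared groups and 37 with the replicate block. Members called there were 0, and 1, 3 and 14 with quantile normalization, median centring and only the 2 compared groups. With dim genes left out, members called were 15 in NU7441 against control and 3 in knockdown against NU7441, since dimmer members were not tested. In the last comparison all genes called were 1284, and 820 without the trend and 472 with only the 2 compared groups. Leaving out 1 array moved all genes called from 868 (without control replicate 2) to 7845 (without NU7441 replicate 2) in NU7441 against control, from 1 (without knockdown replicate 2) to 2884 (without NU7441 replicate 1) in knockdown against control and from 0 (without knockdown replicate 2) to 5101 (without NU7441 replicate 2) in knockdown against NU7441. Members called ranged from 2 to 33, from 0 to 14 and from 0 to 13 in the same order, where the same arrays were at or tied for the extremes. The share of lower calls among all genes in NU7441 against control was 67.4%, and 49.0% after quantile normalization, 32.1% with median centring and 52.9% with dim genes left out. For knockdown against control it was 63.2%, and 18.4% with median centring, and for knockdown against NU7441 32.8%, and 43.7% and 59.4% with quantile normalization and median centring.

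The replicate numbers did not pair the arrays, with correlations of deviations of -0.07, -0.01 and -0.01 between groups. With the replicate block 4490 genes and 22 members were called in NU7441 against control and 1025 genes and 5 members in knockdown against NU7441. Causes of these shifts were not tested. With 2 arrays per group and dim genes near the lowest deposited value, differences of dim members are measured least precisely.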

Other observations

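Regulators of epithelial identity and genes of matrix maturation were also counted. Of 15 measured epithelial to mesenchymal regulators (of 16 listed) 1 rose and 4 fell under NU7441, where 10.8% of all genes rose and 22.4% fell. With quantile normalization 1 rose and 3 fell, where 14.3% of all genes rose and 13.8% fell. GRHL2, an activator of epithelial junction genes, rose (0.83 ± 0.13, limma adjusted p = 0.00230), with 505 and 464 under NU7441, 334 and 358 after knockdown and 266 and 278 in control cells. Its relative GRHL1, also an activator in epithelia, fell (-1.02 ± 0.34, adjusted p = 0.0448) and lost the call after quantile normalization (-0.76). TCF4, a helix-loop-helix factor, was second highest and did not pass (0.18 ± 0.21). The mesenchymal factor PRRX1 fell (-1.06 ± 0.22), with 16.1 and 19.2 under NU7441 and 34.8 and 38.6 in controls. GRHL1 and PRRX1 are named here after their values were seen. The repressors SNAI1 (-1.27 ± 0.28) and ZEB2 (-1.56 ± 0.26) fell, with SNAI1 at 19.6 and 23.1 under NU7441 and at 50.5 and 52.2 in controls. ZEB2 was at 24.8 and 29.5 under NU7441 and at 69.1 and 92.5 in controls. PRRX1 and SNAI1 lay near the lowest deposited value of 16 under NU7441, so the sizes of their falls are not firm. After knockdown 0 of the 15 passed limma's test, where 0.77% of all genes did. SNAI2 (0.44 ± 0.28) and GRHL2 (0.35 ± 0.13) were highest and SNAI3 was lowest, followed by ZEB2 (-0.95 ± 0.26). GRHL2 was lower in knockdown than in NU7441-treated cells (-0.48 ± 0.13), and SNAI2 was higher (1.22 ± 0.28), or 1.03 after quantile normalization, just short of the threshold (adjusted p = 0.0536).

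Of 14 measured genes of collagen and matrix maturation (of 23 listed) 0 rose and 1 fell under NU7441, where 10.8% of all genes rose and 22.4% fell. The 1 was HSPG2, which encodes the basement membrane proteoglycan perlecan (-0.85 ± 0.28, limma adjusted p = 0.0405). With quantile normalization 0 rose and 0 fell, where 14.3% of all genes rose and 13.8% fell. AGRN, which encodes agrin, was the highest of the list but differed widely between its NU7441 arrays, at 61.0 and 187, against 78.4 and 83.2 in controls (0.40 ± 0.42). LOX (0.20 ± 0.24) was second highest and LOXL2 (-0.42 ± 0.24) second lowest, both lysyl oxidases that cross-link collagen. After knockdown 0 of the 14 passed, where 0.77% of all genes did. AGRN (0.67 ± 0.42) and NID2 (0.40 ± 0.34) were highest and LOX (-0.42 ± 0.24) and HSPG2 (-0.38 ± 0.28) lowest. Among markers of other cells, summed intensities of 4 basal genes (of 6 listed) were 89.3 to 132 under NU7441, 98.8 to 102 after knockdown and 105 to 116 in controls, those of 3 leukocyte genes (of 7) in the same order 168 to 168, 178 to 202 and 190 to 202, and those of 4 neuroendocrine genes (of 6) 83.3 to 102, 104 to 133 and 127 to 145. Most of the leukocyte sum was CD68, at 115 to 160 over the 6 arrays. None of these markers was listed at 0, since no value lay below 16.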
